A study of Mus musculus with 12 samples.

Results

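The comparison of rapamycin plus sunitinib with saline rested on 8 of the 12 RIP1Tag2 pancreatic neuroendocrine tumors (PanNETs) that were sequenced in this series: 4 tumors whose labels name combination therapy (R+S-treated tumors 4, 5, 7 and 10) and 4 that were labeled as given saline (control tumors 1 to 4). The other 4 tumors came from mice given sunitinib alone and are used only where the combination is set beside sunitinib. All mice were C57Bl6 animals carrying the RIP1Tag2 transgene, which drives the SV40 T antigen from an insulin promoter in beta cells, and all were treated for 4 days starting at 15.5 weeks of age. The tumors arise in beta cells only, by a viral oncogene, and each library came from a whole tumor with its vessels, immune cells and any adjoining pancreas.

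Sunitinib blocks receptor tyrosine kinases, chief among them the receptors of vascular endothelial growth factor (VEGF) and platelet-derived growth factor (PDGF) on which the endothelium and pericytes of tumor vessels depend. Rapamycin inhibits mTOR complex 1, a kinase that joins growth factor and amino acid signals to protein synthesis, to the translation and activity of transcription factors such as ATF4, HIF1A and the SREBPs, and to mitochondrial and lipid metabolism. When vessels are lost, oxygen falls, the hypoxia-inducible factors (HIFs) are stabilized, and genes for glycolysis, lactate export and angiogenesis are transcribed. The genes of these pathways are described below in the order vessels and stroma, growth and division, amino acids and translation, mitochondria, lipids, and hypoxia and glucose.

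Between 34898448 and 44215054 reads were counted on genes in the control tumors and between 36168462 and 42143690 in the R+S-treated tumors. Insulin 2 (Ins2), the defining beta-cell transcript, took between 1.82% and 3.36% of the reads of each control tumor and between 2.24% and 3.23% of each R+S-treated tumor, so the labeled tumor type was seen in all 8 libraries. Among the sunitinib-treated tumors, tumor 6 stood apart, with 0.078% of its reads on Ins2. It was in no fit of the 8 R+S-treated and control tumors, and entered the fit of all 12 tumors and the comparisons with sunitinib. Transcripts of the exocrine pancreas did not run level between the groups: genes of acinar cells, which encode digestive enzymes and their regulators, summed to between 83.8 and 228 CPM (counts per 1000000 reads) in the control tumors and to between 3840 and 20763 in the R+S-treated tumors. The label prefixes S409 (the 4 control tumors) and BZ50, BZ51 and BZ75 (R+S-treated) were not shared between the groups, so a difference between prefixes and a difference between treatments cannot be told apart.

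Of 16184 genes tested by edgeR's quasi-likelihood test, 2557 (15.8%) passed a Benjamini-Hochberg adjusted p of 0.05, of which 1083 (6.69%) were higher and 1474 (9.11%) lower in R+S-treated tumors. The lower genes had moved farther, with a median log2 fold change of -0.80 against 0.61 for the higher genes. A total of 574 genes were lower by more than 1 on the log2 scale and 300 were higher by more than 1, while the median over all genes was 0.00. Groups that did not overlap were common in this comparison, at 23.6% of all genes tested, so the absence of overlap is given below as a description only. When all 12 tumors entered 1 fit, 4.16% of 16645 genes passed (1.55% higher and 2.61% lower), and 667 genes passed in both fits (235 higher and 432 lower). An adjusted p beside a named gene is that of the 8-tumor fit unless another fit is stated. The 12-tumor value is added where it fell on the other side of 0.05. Genes said to rise or fall without an adjusted p also passed in the 8-tumor fit.

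**Figure D1:**
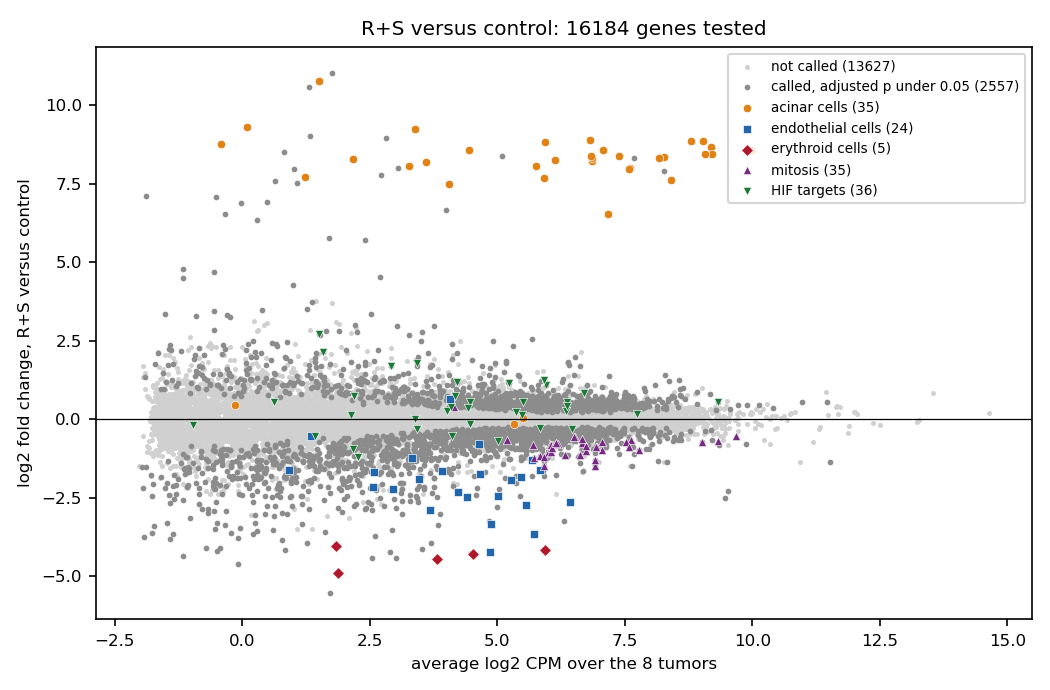
Log2 fold change of R+S-treated over control tumors (vertical axis) against the average log2 CPM (horizontal axis) for each of the 16184 genes tested, with members of 5 gene lists in color. The acinar genes form a cloud far above 0, the erythroid and endothelial genes lie below it, the mitosis genes lie below 0 and the HIF targets lie mostly above it.

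Among genes outside the acinar and REG lists that passed both fits, did not overlap between groups and had an average log2 CPM of at least 3, the 12 that rose most included Tff2, Rflna, Ltbp1 and Necab2. Tff2, a trefoil peptide of mucous and ductal epithelia, was at 0.798, 0.186, 0.0256 and 0.17 CPM in control tumors 1 to 4 and at 23.6, 39.6, 9.61 and 52.8 CPM in R+S-treated tumors 4, 5, 7 and 10 (log2 fold change 6.65 ± 0.83 SE, adjusted p = 0.00205). This is the order in which values are given throughout. Tff2 was also on the list of duct genes, and it moved with the exocrine transcripts.

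Six4, a homeobox transcription factor, was at 16.4, 15.5, 10.7 and 12.3 CPM in the control tumors and at 55.3, 67.1, 34.9 and 34.0 CPM in the R+S-treated tumors (log2 fold change 1.80 ± 0.25, adjusted p = 0.00345). Fmnl2, a formin that elongates actin filaments, was at 50.2, 30.8, 35.5 and 41.7 CPM and then at 142, 178, 95.0 and 105 CPM (1.72 ± 0.23, adjusted p = 0.00261). Hdac9, a class II histone deacetylase, was at 9.79, 7.69, 8.86 and 9.91 CPM and then at 25.6, 31.0, 24.0 and 15.8 CPM (1.41 ± 0.20, adjusted p = 0.00377). In all 3 genes the lowest R+S-treated tumor stood above the highest control. Rflna, an intracellular protein that binds filamin on actin, rose by 2.49 ± 0.39. The secreted proteins of this set were Ltbp1 (log2 fold change 2.10 ± 0.42), which tethers latent TGF-β to the matrix, Mmp12 (1.69 ± 0.21), the macrophage elastase, and Ntn4 (1.46 ± 0.28), a netrin of basement membranes. Necab2, a neuronal calcium-binding protein, rose by 2.55 ± 0.53 with a wide spread, from 27.2 CPM in tumor 10 to 157 CPM in tumor 4. The calls of Ltbp1, Necab2 and Filip1 (1.88 ± 0.39) were lost without control tumor 3, at adjusted p = 0.0507, 0.0542 and 0.0548. Ankrd37, also of this set, is described with the HIF targets.

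The 12 genes that fell most were genes of blood and of vessels, joined by Gad2, Ccnd1, Igfbp3 and Rn7sk. Gad2, the glutamate decarboxylase that makes GABA in beta cells and neurons, was at 45.0, 43.5, 62.4 and 56.0 CPM in the control tumors and at 1.44, 1.39, 6.80 and 12.4 CPM in the R+S-treated tumors (log2 fold change -3.23 ± 0.66, adjusted p = 0.0158). Every R+S-treated tumor was below every control, but within the treated group tumor 10 was far above tumors 4 and 5. Igfbp3, a secreted binding protein of the insulin-like growth factors, was at 102, 137, 188 and 146 CPM and then at 18.9, 16.9, 14.9 and 10.7 CPM (-3.23 ± 0.23, adjusted p = 1.75e-04). Rn7sk, the 7SK RNA that holds back transcription elongation, is made by RNA polymerase III without a poly(A) tail, and poly(A) libraries capture it only in part. It was at 45.8 CPM in control tumor 1 and at 2.31 to 7.47 CPM in the other controls, against 0.333 to 1.54 CPM in the R+S-treated tumors, and its call was lost without R+S tumor 4, 5 or 7 (adjusted p between 0.0616 and 0.0641).

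**Figure D2:**
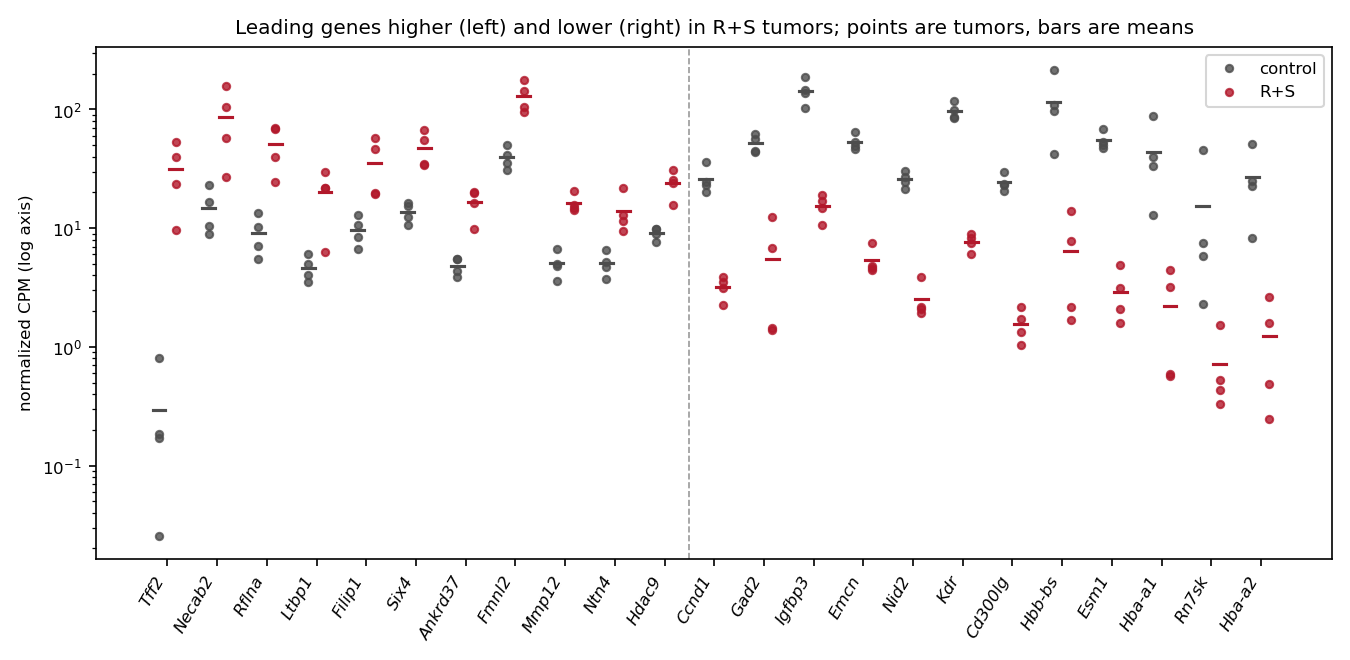
CPM on a log axis of 11 of the 12 genes that rose most and of the 12 that fell most by the rule above, with 1 point per control tumor and per R+S-treated tumor. The 2 groups do not overlap for any gene, which the rule required, and the widest spread within a group is that of Tff2 in the control tumors, where the lowest value is 0.0256 CPM.

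The vessel genes fell together. Of 24 endothelial genes, 21 were lower and 1 higher, against 9.11% and 6.69% of all genes tested, with a median log2 fold change of -1.92. In whole tumors, fewer endothelial cells and less RNA per endothelial cell cannot be told apart. Kdr, the main signaling receptor of VEGF, was at 87.2, 85.5, 118 and 99.2 CPM in the control tumors and at 8.96, 7.50, 6.11 and 8.28 CPM in the R+S-treated tumors, a 12.6-fold difference (log2 fold change -3.66 ± 0.16, adjusted p = 1.72e-05). All 4 treated tumors lay close together and far below the controls. Flt1, the decoy-like VEGF receptor, fell by 2.75 ± 0.17, and Flt4, the lymphatic VEGF receptor, fell by 2.52 ± 0.30. Esm1, a proteoglycan of tip cells, the leading cells of a vessel sprout, fell by 4.23 ± 0.34 from between 47.2 and 69.0 CPM to between 1.58 and 4.88 CPM. Emcn, a sialomucin of capillaries and veins, fell by 3.33 ± 0.20, Cd300lg, a receptor of capillary endothelium, by 3.95 ± 0.24, and Plvap, which forms the diaphragms of fenestrated capillaries, by 2.65 ± 0.10.

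A single endothelial gene was higher. Vwf, the von Willebrand factor of clotting, was at 14.6, 13.5, 12.2 and 11.8 CPM in the control tumors and at 24.7, 21, 20.4 and 16.1 CPM in the R+S-treated tumors (log2 fold change 0.65 ± 0.14, adjusted p = 0.0195), with no overlap. The value in the fit of all 12 tumors was 0.0859, and the call was also lost when R+S tumor 4, 5 or 7 or control tumor 3 was left out (adjusted p between 0.0501 and 0.0638). With the offset for transcript length and GC content described below, Vwf lay at 0.0829. Its direction was thus opposite to those of the other endothelial genes that passed.

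Of the 26 genes of the VEGF, PDGF, angiopoietin and other families that sunitinib targets, 10 fell and 1 rose. The receptors made up most of the fall: beside the 3 VEGF receptors, Tie1, an orphan receptor that works with the angiopoietin receptor, went from 29.5, 34.2, 43.3 and 37.2 CPM to 8.82, 5.63, 5.70 and 5.83 CPM (log2 fold change -2.47 ± 0.19, adjusted p = 2.11e-04). The gene that rose was the ligand Vegfa, at 514, 514, 521 and 552 CPM in the control tumors and at 675, 886, 781 and 711 CPM in the R+S-treated tumors (0.54 ± 0.10, adjusted p = 0.0123, and 0.231 in the fit of all 12 tumors). In these 8 tumors the ligand was higher in every treated tumor and its receptors were lower in every treated tumor.

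Of 18 tip-cell and Notch genes, 5 fell and none rose. Notch4, the endothelial Notch receptor, fell by 2.49 ± 0.18, and the Notch target Hey1 fell by 1.51 ± 0.19 from between 4.87 and 7.55 CPM to between 1.94 and 2.26 CPM (adjusted p = 0.00211, and 0.245 with all 12 tumors). Aplnr, the receptor of the sprouting signal apelin, fell by 2.90 ± 0.28. Of 16 FGF, MET and ephrin genes, 4 fell, all of them ephrins or their receptors: Efna1 by 1.54 ± 0.17, Ephb4 by 1.52 ± 0.18, Epha2 by 1.51 ± 0.23 and Efnb2 by 1.28 ± 0.19. With all 12 tumors in the fit, only Ephb4 of these 4 stayed under 0.05 (0.00467), the others lying at 0.0895, 0.0729 and 0.0517.

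The basement membrane, the sheet of laminin, collagen IV and nidogen on which endothelium sits, followed the endothelium. Of 15 genes, 11 were lower and none higher, with a median log2 fold change of -1.36. Nid2 fell by 3.36 ± 0.25 from between 21.4 and 30.1 CPM to between 1.91 and 3.91 CPM. Lama3 and Lama4, laminin α chains, fell by 2.86 ± 0.21 and 2.19 ± 0.19, and the collagen IV chain Col4a1 fell by 1.36 ± 0.21, from 305, 459, 627 and 457 CPM to 218, 176, 174 and 153 CPM. Of the 14 pericyte and smooth muscle genes 3 were lower and none higher, and the list's median was -0.31. Among the lower genes were the potassium channel subunits Kcnj8 (-1.56 ± 0.31) and Abcc9 (-1.38 ± 0.24, adjusted p = 0.00886, and 0.106 with all 12 tumors). The list was split in direction, with 6 members at a positive log2 fold change, of up to 2.07, and 8 at a negative one. Its summed level overlapped, at 462 to 834 CPM in the control and 333 to 744 CPM in the treated tumors.

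Blood itself fell farthest. All 5 erythroid genes tested were lower, with a median log2 fold change of -4.31. Hbb-bs, an adult β-globin, was at 214, 109, 98.0 and 42.2 CPM in the control tumors and at 13.9, 7.85, 1.67 and 2.16 CPM in the R+S-treated tumors (-4.18 ± 0.76, adjusted p = 0.01). Hba-a1 and Hba-a2, the α-globin genes, fell by 4.31 ± 0.82 and 4.45 ± 0.78, but they are near-identical copies that share reads, and the split between them is uncertain. Alas2, the first enzyme of heme synthesis in red cell precursors, fell by 4.89 ± 0.91. The controls spread over a wide range, control tumor 1 being highest and control tumor 4 lowest in all 4 of these genes, yet the lowest control was above the highest treated tumor.

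Macrophage and interferon genes were lower as well. Of 20 macrophage genes 9 fell and none rose, with a median of -0.57. Mrc1, the mannose receptor of tissue-resident macrophages, went from 13.9, 9.92, 18.4 and 14.8 CPM to 2.58, 2.04, 3.08 and 3.54 CPM (log2 fold change -2.34 ± 0.24, adjusted p = 8.21e-04). The summed level of the list overlapped between the groups, at 1119 to 1498 CPM in the control tumors and 830 to 1247 CPM in the R+S-treated tumors. Of 32 interferon-stimulated genes 13 fell and none rose, with a median of -0.72. Ifi44 fell by 1.93 ± 0.22, the ubiquitin-like Isg15 by 1.70 ± 0.25 and Ifit3 by 1.67 ± 0.28. These 2 lists were thinner with all 12 tumors in the fit, where 2 macrophage and 3 interferon genes were lower. In that fit 2.61% of all genes were lower, and Ifi44 and Isg15 lay at 0.0556 and 0.0552. Of 18 fibroblast and stellate cell genes 2 fell, Col6a3 (-1.81 ± 0.15) and the surface protein Thy1 (-1.51 ± 0.26, adjusted p = 0.00822, and 0.0802 with all 12 tumors), and of 14 lymphocyte genes 1 fell. The fibroblast and lymphocyte counts were near the 9.11% of all genes that were lower. Of 19 antigen presentation genes 1 rose and none fell.

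**Figure D3:**
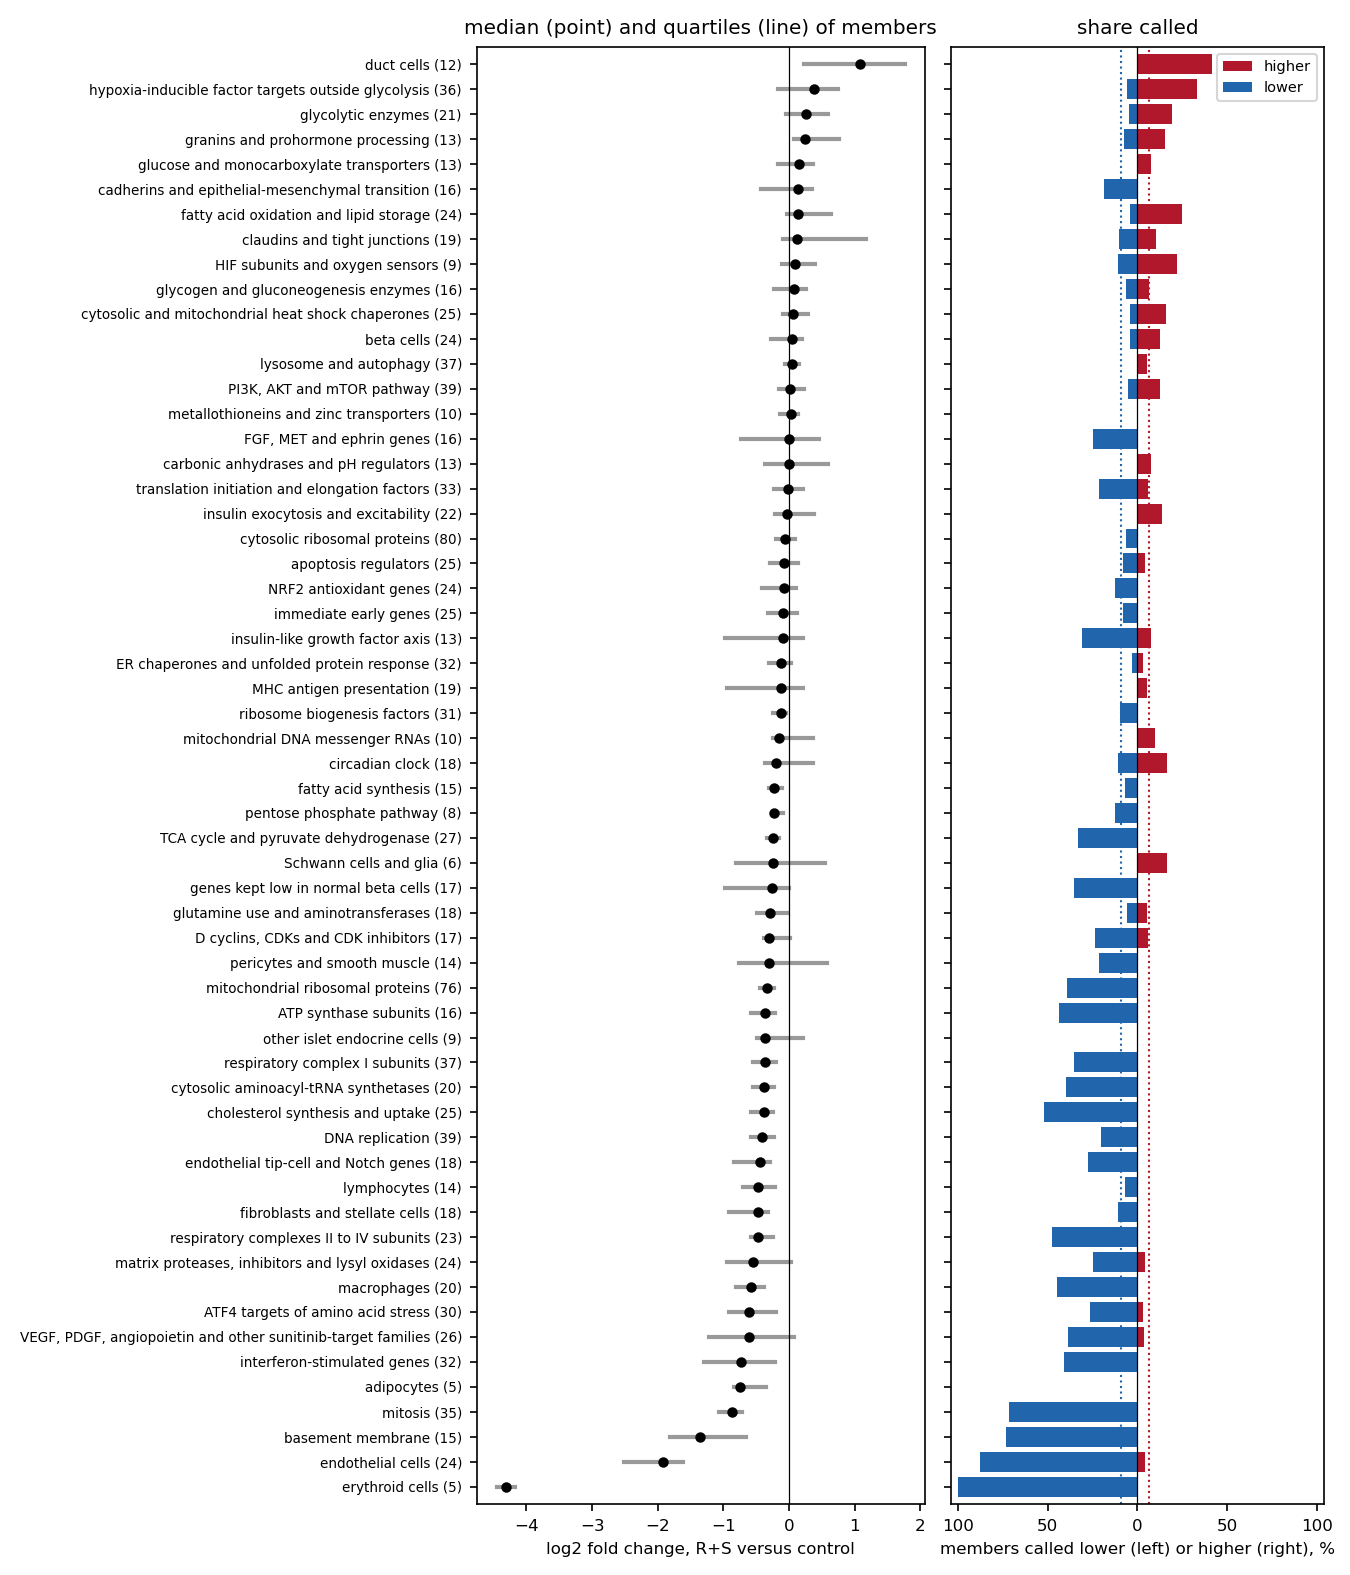
Median (points) and quartiles (bars) of the log2 fold change of the tested members of each of 58 gene lists (at least 5 members tested, acinar and REG lists left out), beside the percentage of members called higher (to the right) or lower (to the left) in R+S-treated tumors, with dotted lines at 6.69% and 9.11%, the shares over all genes tested. The erythroid, endothelial, basement membrane and mitosis lists reach farthest to the left.

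Exocrine transcripts moved the other way. Of the 35 acinar genes tested 32 were higher and none lower, and all 6 tested members of the REG family, lectins that acinar cells secrete under stress, were higher. Ctrb1, a chymotrypsinogen, was at 18.2, 0.399, 0.435 and 1.93 CPM in the control tumors and at 1628, 2697, 612 and 3121 CPM in the R+S-treated tumors (log2 fold change 8.56 ± 1.44, adjusted p = 0.00746). Of the list, 3 genes named after their values were seen, the trypsinogens Prss1 and Prss3 and the acinar transcription factor Ptf1a, had no read in any control tumor and were at least 72.7-fold, 26.4-fold and 18-fold higher in R+S-treated tumors against a floor of 3 reads per library (adjusted p = 0.0124, 0.00456 and 0.00672, with Prss3 at 0.0961 in the fit of all 12 tumors). The median log2 fold change of the acinar list was 8.31 as fitted, or 8.25 with these 3 genes at their bounds. The 3 acinar genes that did not pass, named after their values were seen, were Bhlha15 (log2 fold change -0.15), Gatm (0.05) and Nr5a2 (0.45). Of 12 duct genes 5 were higher and none lower, and 2 were higher with all 12 tumors in the fit. Muc1, a mucin of ductal surfaces, was up by 1.61 ± 0.31 and Sox9, a transcription factor of ducts and progenitors, by 2.22 ± 0.48 (adjusted p = 0.0118 and 0.0185, and 0.067 and 0.151 with all 12 tumors). In 3 of the 12 the log2 fold change was negative, among them the most abundant, Krt7 (-0.24 ± 0.11, adjusted p = 0.172). The summed level of the duct list overlapped, at 582 to 625 CPM in the control and 519 to 655 CPM in the treated tumors.

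The part of the exocrine transcripts in the other differences was not tested beyond 2 measurements. Leaving the acinar and REG genes out of the normalization gave 2563 called genes in place of 2557. A fit with the mean log2 CPM of the acinar list as a covariate called 0 genes by edgeR's quasi-likelihood test (1229 had an unadjusted p under 0.05), and since 93.1% of the variance of that score lay between the groups, the score and the treatment cannot be told apart there.

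**Figure D4:**
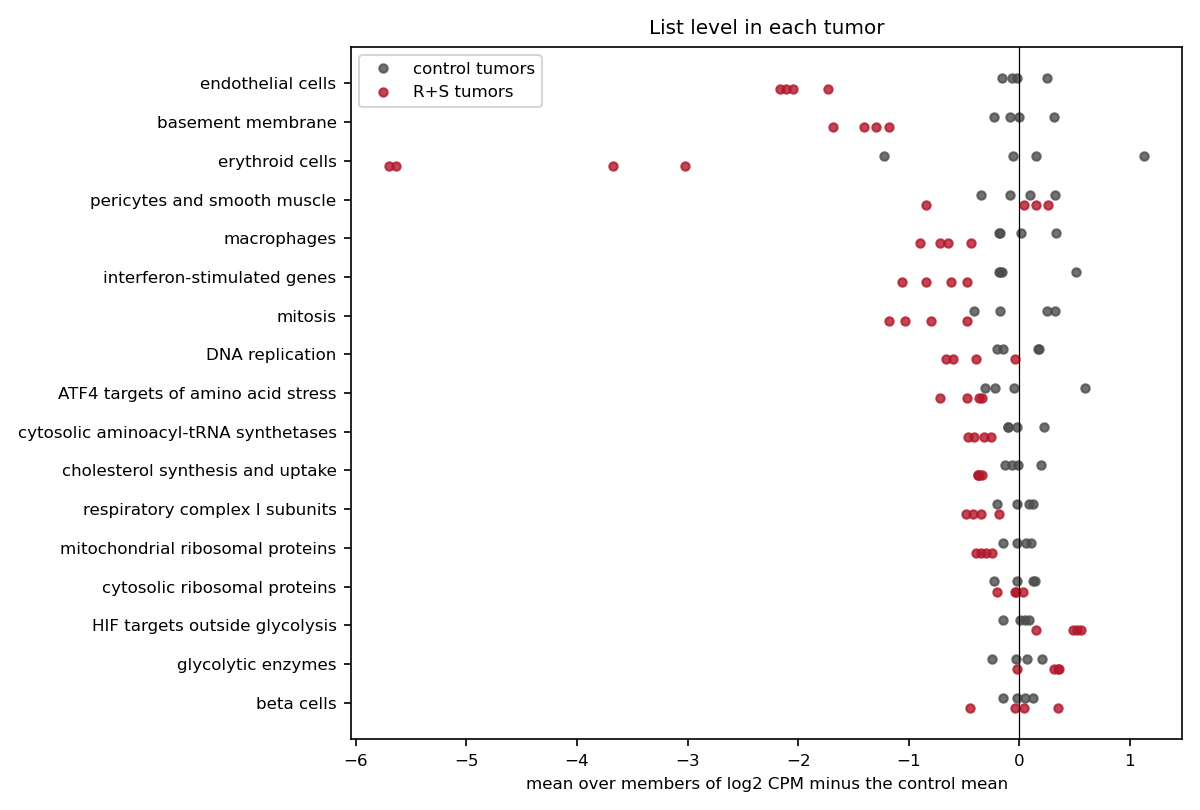
Mean log2 CPM of the tested members of 17 gene lists in each tumor, given as the difference from the mean of the 4 control tumors. The R+S-treated tumors lie below every control for the endothelial and erythroid lists and above every control for the HIF targets. The acinar and REG lists are not drawn.

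Genes of cell division were lower, most of all those that act at mitosis. Of 35 mitosis genes 25 fell and none rose, with a median log2 fold change of -0.87, and 17 fell with all 12 tumors in the fit, where the share over all genes was 2.61%. Of the 39 DNA replication genes 8 fell and none rose, with a median of -0.41. Ube2c, the ubiquitin-conjugating enzyme of the anaphase-promoting complex, was at 132, 154, 219 and 205 CPM in the control tumors and at 54.8, 41.9, 67.7 and 90.0 CPM in the R+S-treated tumors (-1.48 ± 0.25, adjusted p = 0.00765). Aurka, a kinase of the spindle poles, went from 65.3, 68.2, 82.9 and 76.2 CPM to 30.8, 23.3, 31.0 and 39.4 CPM (-1.23 ± 0.16, adjusted p = 0.00217). For both genes the highest treated tumor, tumor 10, was below the lowest control, tumor 1. Kif2c, which depolymerizes microtubules at kinetochores, fell by 1.49 ± 0.32 (adjusted p = 0.0184), a call lost without R+S tumor 4 or control tumor 3 (0.0519 and 0.0557).

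Mitosis genes are transcribed late in the cell cycle from promoters that often carry a cell cycle homology region (CHR) and CCAAT boxes. Of the 25 mitosis genes that fell, 22 had a promoter window in the RefSeq table (GRCm38.p6, 250 bases before to 50 after a start), with 24 windows in all. A CHR, searched as TTTGAA or TTCGAA on both strands, was in 75% of these windows and in 19.2% of all 32841 windows, and CCAAT on either strand was in 75% against 37.4%. The window of Ube2c, at chr2:164769679-164769978 on the plus strand, is shown because it held both, with 1 CHR match (its reverse complement, TTCAAA) and 6 CCAAT matches, some of them overlapping, in capitals. A match describes the letters only. Here and below, members that did not pass were not searched, so no share sets the called members apart from their list.
Ube2c: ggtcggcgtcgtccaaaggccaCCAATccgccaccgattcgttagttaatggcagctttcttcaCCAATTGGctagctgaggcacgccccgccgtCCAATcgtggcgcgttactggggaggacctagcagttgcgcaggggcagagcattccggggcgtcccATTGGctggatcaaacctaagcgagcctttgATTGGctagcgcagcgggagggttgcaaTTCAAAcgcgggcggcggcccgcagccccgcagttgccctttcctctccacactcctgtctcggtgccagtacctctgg

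The D cyclins couple growth signals to cell cycle entry, and Ccnd1 fell far more than the genes of mitosis. It was at 22.9, 20.1, 36.1 and 24.4 CPM in the control tumors and at 2.27, 3.53, 3.88 and 3.12 CPM in the R+S-treated tumors, an 8.06-fold difference (log2 fold change -3.01 ± 0.24, adjusted p = 2.43e-04). Ccnd2 fell by 0.80 ± 0.20 (adjusted p = 0.0291) and Cdkn2a, the locus of the inhibitors p16 and p19, by 0.55 ± 0.08 (adjusted p = 0.00501), from 76.8, 91.3, 86.2 and 95.2 CPM to 57.2, 59.4, 61.1 and 61.5 CPM. With the offset for transcript length and GC content described below, Cdkn2a lay at 0.099. The call of Ccnd2 was lost on leaving out any R+S tumor or control tumor 3 or 4 (adjusted p between 0.051 and 0.0754), and with all 12 tumors (0.232). In all, 4 of 17 cyclin D, CDK and CDK inhibitor genes fell and 1 rose.

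Amino acid genes under the transcription factor ATF4 were lower. ATF4 is translated when amino acids are scarce or the ER is stressed, and also downstream of mTOR complex 1, and it drives serine, glycine, proline and asparagine synthesis. Of 30 targets 8 fell and 1 rose, with a median log2 fold change of -0.61. Psat1, an enzyme of serine synthesis, was at 108, 195, 128 and 106 CPM in the control tumors and at 53.2, 55.1, 66.4 and 57.5 CPM in the R+S-treated tumors (-1.21 ± 0.19, adjusted p = 0.0063). Shmt2, which turns serine into glycine in mitochondria, went from 95.7, 130, 101 and 87.9 CPM to 42.1, 43.3, 56.3 and 48.7 CPM (-1.12 ± 0.14, adjusted p = 0.00219). The transcript of Atf4 itself went from 307, 385, 279 and 247 CPM to 197, 193, 213 and 210 CPM (-0.58 ± 0.13, adjusted p = 0.0221, and 0.0578 with all 12 tumors). None of these 3 genes overlapped between the groups, and the treated tumors were closer to each other than the controls were. Atf4 lost its call without R+S tumor 4, 5 or 7 (adjusted p between 0.0508 and 0.0608).

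Pycr1, the last step of proline synthesis, fell by 1.33 ± 0.32 (adjusted p = 0.0269, and 0.0572 with all 12 tumors) and Asns, asparagine synthetase, by 0.64 ± 0.16 (adjusted p = 0.0288, and 0.261 with all 12 tumors). Both calls were lost without R+S tumor 4, 5 or 7 or control tumor 3, and that of Asns also without control tumor 2, at adjusted p of up to 0.0724 for Pycr1 and 0.0764 for Asns. The target that rose, Nupr1, a small stress protein, went from between 4.46 and 24.0 CPM to between 20 and 130 CPM with overlap (2.34 ± 0.65, adjusted p = 0.043, and 0.0552 with all 12 tumors). It lost its call in 6 of 8 fits without 1 tumor, all but those without R+S tumor 7 or control tumor 2 (adjusted p of up to 0.117). Pycr1 and Asns were the 2 of 7 targets with a window that held the amino acid response element, searched as TGATGNAA on both strands. It was in 25% of the 8 windows of the ATF4 targets that fell and in 3.97% of all windows. Their windows, at chr11:120643699-120643998 and chr6:7693160-7693459, both on the minus strand, are printed along the gene with the element in capitals.
Pycr1: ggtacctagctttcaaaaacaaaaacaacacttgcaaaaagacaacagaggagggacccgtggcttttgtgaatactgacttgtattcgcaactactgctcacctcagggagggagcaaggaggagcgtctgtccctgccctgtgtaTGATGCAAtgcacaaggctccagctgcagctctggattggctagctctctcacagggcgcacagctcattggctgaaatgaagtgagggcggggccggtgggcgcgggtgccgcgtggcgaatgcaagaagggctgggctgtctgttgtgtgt
Asns: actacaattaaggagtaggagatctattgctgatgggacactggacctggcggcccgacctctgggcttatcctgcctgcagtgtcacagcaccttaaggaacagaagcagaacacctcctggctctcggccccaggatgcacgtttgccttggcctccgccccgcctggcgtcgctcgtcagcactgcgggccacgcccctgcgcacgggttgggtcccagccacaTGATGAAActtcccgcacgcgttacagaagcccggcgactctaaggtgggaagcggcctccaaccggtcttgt

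Cytosolic tRNA synthetases, many of which ATF4 also drives, went the same way, with 8 of 20 lower, none higher and a median of -0.37. Hars, for histidine, went from 60.8, 71.6, 68.1 and 62.9 CPM to 42.0, 32.9, 40.4 and 49.8 CPM (log2 fold change -0.67 ± 0.13, adjusted p = 0.011), and Gars, for glycine, fell by 0.65 ± 0.10 (adjusted p = 0.00481). With all 12 tumors none of the 20 passed, Hars and Gars lying at 0.0563 and 0.166. Of 33 translation factors 7 fell and 2 rose. Eif4a1, the helicase of the cap-binding complex, went from 155, 142, 160 and 128 CPM to 103, 89.4, 100 and 108 CPM (-0.55 ± 0.10, adjusted p = 0.00866, and 0.0687 with all 12 tumors).

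Eif4ebp1, which encodes the cap-binding repressor 4E-BP1 that mTOR complex 1 phosphorylates and is also an ATF4 target, was at 12.7, 30.1, 12.4 and 9.51 CPM in the control tumors and at 5.93, 7.52, 6.55 and 6.99 CPM in the R+S-treated tumors (log2 fold change -1.26 ± 0.34, adjusted p = 0.0381). Control tumor 2 was far above the other controls, and all treated tumors were below all controls. The call was lost without any 1 of the R+S tumors or without control tumor 3 (adjusted p between 0.0621 and 0.093).

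Within the PI3K, AKT and mTOR pathway 5 of 39 genes rose and 2 fell, with a median of 0.02. Irs2, the adaptor that carries insulin receptor signals, was at 19.8, 21.2, 17.2 and 22.7 CPM and then at 33.1, 52.2, 37.8 and 37.8 CPM (log2 fold change 0.99 ± 0.15, adjusted p = 0.00548), and Grb10, an adaptor that restrains insulin signaling and is a substrate of mTOR complex 1, fell by 0.90 ± 0.19 (adjusted p = 0.0158). The fit of all 12 tumors did not call either gene (0.204 and 0.349). Neither receptor above them passed: Insr differed by 0.23 ± 0.09 (adjusted p = 0.115) and Igf1r by 0.25 ± 0.19 (0.384). Of 13 genes of the insulin-like growth factor axis 4 fell and 1 rose.

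Nuclear genes of the mitochondrion were lower in small steps. Of 37 complex I subunits 13 fell and none rose, with a median log2 fold change of -0.36. The counts were 11 of 23 for complexes II to IV (median -0.47), 7 of 16 for ATP synthase (-0.36), 30 of 76 for mitochondrial ribosomal proteins (-0.33) and 9 of 27 for the TCA cycle and pyruvate dehydrogenase (-0.24), again with none higher. Atp5k, a small subunit of ATP synthase, went from 63.5, 70.8, 62.5 and 60.9 CPM to 41.1, 30.0, 35.8 and 38.7 CPM (-0.82 ± 0.11, adjusted p = 0.00264, and 0.0877 with all 12 tumors). Cox7b, of cytochrome c oxidase, went from 90.1, 102, 95.6 and 86.1 CPM to 67.7, 48.3, 58.7 and 62.1 CPM (-0.66 ± 0.11, adjusted p = 0.00789). Mrpl20, of the large mitochondrial ribosomal subunit, fell by 0.81 ± 0.15 and Ndufa3, of complex I, by 0.81 ± 0.14 (adjusted p = 0.0116 and 0.00855, with Ndufa3 at 0.0617 in the fit of all 12 tumors). The differences were under 2-fold, yet the groups did not overlap for any of these 4 genes. Transcripts made within the mitochondrion did not follow: of 10 messages from mitochondrial DNA 1 was higher and none lower, and mt-Co1 differed by -0.09 ± 0.15 (adjusted p = 0.692).

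These lists moved with an offset for transcript length and GC content together. Over genes at a log2 CPM above 2, the median log2 fold change went from -0.17 for the shortest 2421 genes by transcript length to 0.13 for the longest 2418. With the offset, chosen after the trend was seen, these medians were -0.02 and 0.00, and the list medians moved from -0.36 to -0.21 for complex I (11 lower), from -0.47 to -0.29 for complexes II to IV (9 lower), from -0.36 to -0.29 for ATP synthase (6 lower) and from -0.33 to -0.24 for mitochondrial ribosomal proteins (23 lower). With all 12 tumors in the fit 0, 2, 1 and 3 members of these 4 lists were lower, and 0 of the TCA cycle and pyruvate dehydrogenase list. Cytosolic ribosomal proteins changed direction: 5 of 80 were lower and none higher with a median of -0.06, but with the offset 6 were higher and 1 lower with a median of 0.11.

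About as many genes of cholesterol synthesis fell as did not pass. These genes are switched on together by SREBP2 when sterols are short. Of 25 genes 13 fell and none rose, with a median log2 fold change of -0.38, and 3 fell in the fit of all 12 tumors. Srebf2, which encodes SREBP2, was at 147, 160, 169 and 156 CPM in the control tumors and at 88.5, 86.2, 96.5 and 105 CPM in the R+S-treated tumors (-0.75 ± 0.09, adjusted p = 0.00142). Fdps, which makes farnesyl pyrophosphate, went from 48.9, 50, 49.6 and 42.4 CPM to 26.5, 24.1, 23.4 and 30.3 CPM (-0.87 ± 0.11, adjusted p = 0.0018). The sterol regulatory element, searched as TCACNCCAC on both strands, was in 1 of 11 promoter windows of the genes that fell (9.09%) and in 1.24% of all windows.

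Of 24 genes of fatty acid oxidation and lipid storage 6 rose and 1 fell. Cpt1a, the gate for fatty acids into the mitochondrion, was at 24.6, 23.9, 24.2 and 22.7 CPM in the control tumors and at 80.0, 57.3, 50.4 and 59.6 CPM in the R+S-treated tumors (log2 fold change 1.37 ± 0.14, adjusted p = 7.29e-04). Angptl4, an inhibitor of lipoprotein lipase, rose by 2.13 ± 0.34. For both genes the lowest treated tumor stood above the highest control. The gene that fell was Fabp5, a fatty acid binding protein, at 25.8, 19, 26.5 and 26.2 CPM and then 10.8, 8.15, 14.4 and 11.1 CPM (-1.13 ± 0.19, adjusted p = 0.0069, and 0.0837 with all 12 tumors). Of 15 fatty acid synthesis genes 1 fell, the desaturase Scd2 (-0.96 ± 0.22, adjusted p = 0.022, and 0.0664 with all 12 tumors), whose call was also lost without R+S tumor 4 or control tumor 2 or 3 (0.0532 to 0.061).

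Part of the HIF program was higher. Of 36 HIF targets outside glycolysis 12 rose and 2 fell, with a median log2 fold change of 0.38, and 6 rose with all 12 tumors in the fit, where 1.55% of all genes did. Ak4, a mitochondrial adenylate kinase, was at 0.561, 0.878, 0.691 and 0.823 CPM in the control tumors and at 4.41, 5.07, 7.42 and 2.58 CPM in the R+S-treated tumors (2.72 ± 0.34, adjusted p = 0.00211). Ankrd37, an ankyrin-repeat protein, was at 3.88, 4.34, 5.45 and 5.45 CPM and then at 19.7, 20, 16.4 and 9.92 CPM (1.79 ± 0.24, adjusted p = 0.00293). Slc16a3, the lactate exporter MCT4, was at 3.02, 3.83, 4.20 and 3.07 CPM and then at 12.2, 12.2, 15.1 and 6.30 CPM (1.70 ± 0.27, adjusted p = 0.00591, and 0.0524 with all 12 tumors). Tumor 10 was the lowest treated tumor in all 3 genes, and it was above every control.

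Of the 12 HIF targets that rose, 9 had a RefSeq promoter window, with 14 windows in all. The core of the hypoxia response element, searched as ACGTG or GCGTG on both strands, was in 85.7% of them and in 43.8% of all windows, and ACGTG alone was in 57.1% against 19.6%. The list was made of known HIF targets, and several of the windows were neighboring starts of Ak4. The windows of Ak4, at chr4:101419039-101419338 on the plus strand, and of Ankrd37, at chr8:45999801-46000100 on the minus strand, are shown because these genes had large rises in both fits. They held 2 and 4 matches of the core, in capitals, on either strand, and 2 of the 4 in Ankrd37 overlapped.
Ak4: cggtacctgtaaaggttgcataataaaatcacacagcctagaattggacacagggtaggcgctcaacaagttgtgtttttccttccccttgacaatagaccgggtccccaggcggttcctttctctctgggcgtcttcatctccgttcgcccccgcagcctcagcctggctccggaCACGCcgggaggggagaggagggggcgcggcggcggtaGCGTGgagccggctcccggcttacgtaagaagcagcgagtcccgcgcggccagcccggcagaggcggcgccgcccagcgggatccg
Ankrd37: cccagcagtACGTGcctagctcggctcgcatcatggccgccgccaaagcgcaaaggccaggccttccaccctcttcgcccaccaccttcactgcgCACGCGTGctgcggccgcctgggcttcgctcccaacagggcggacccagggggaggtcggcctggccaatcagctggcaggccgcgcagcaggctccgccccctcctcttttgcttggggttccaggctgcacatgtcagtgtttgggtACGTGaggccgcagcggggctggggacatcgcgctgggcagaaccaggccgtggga

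The oxygen sensing genes changed in both directions. Egln1, the prolyl hydroxylase that marks HIF for destruction and is itself a HIF target, went from 56.5, 85.2, 78.7 and 80.3 CPM to 131, 124, 142 and 137 CPM (log2 fold change 0.83 ± 0.13, adjusted p = 0.0052). Epas1, which encodes HIF2A and is abundant in endothelium, went from 69.6, 72.6, 108 and 65.0 CPM to 25.5, 23.4, 22.8 and 18.4 CPM (-1.81 ± 0.18, adjusted p = 6.94e-04, and 0.0698 with all 12 tumors). Hif1a, whose protein rather than transcript is regulated by oxygen, differed by 0.06 ± 0.09 (adjusted p = 0.688), with values between 107 and 133 CPM in all 8 tumors.

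A minority of glycolytic enzymes passed, most of them higher. Of 21 tested 4 rose and 1 fell in the 8-tumor fit, against 6.69% and 9.11% of all genes, with a median log2 fold change of 0.26. With the offset for transcript length and GC content 5 were higher and 1 lower, with a median of 0.37. None passed with all 12 tumors. Aldoa, the aldolase of most tissues, was at 283, 293, 175 and 149 CPM in the control tumors and at 649, 553, 633 and 280 CPM in the R+S-treated tumors (log2 fold change 1.23 ± 0.31, adjusted p = 0.0299, and 0.104 with all 12 tumors), with tumor 10 below 2 of the controls. The call was lost without R+S tumor 4, 5 or 7 or control tumor 3 or 4 (adjusted p between 0.0604 and 0.0894). Hk1, a hexokinase that normal beta cells keep low, fell from between 6.53 and 9.14 CPM to between 2.80 and 4.72 CPM (-0.93 ± 0.20, adjusted p = 0.0187), a call lost without control tumor 3 (0.061) and with all 12 tumors (0.657). Fbp1, a gluconeogenic enzyme, was under 1 CPM in every tumor and fell by 3.32 ± 0.40 (adjusted p = 0.00182, and 0.0729 with all 12 tumors).

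The study's metabolic question concerns glucose and lactate transporters, lactate dehydrogenase and glutamine enzymes. Of 13 genes that its text names, these and several growth factor receptors, only Slc16a3 passed between R+S-treated and control tumors. Slc2a1, the glucose transporter GLUT1, was at 17.2, 24.1, 16.3 and 17.2 CPM in the control tumors and at 21.5, 27.5, 27.6 and 19.7 CPM in the R+S-treated tumors (log2 fold change 0.36 ± 0.17, adjusted p = 0.165). Ldha, which turns pyruvate into lactate, was at 17.8, 15.1, 18.7 and 12.8 CPM and then at 18.1, 16.4, 16.2 and 13.6 CPM (-0.00 ± 0.15, adjusted p = 0.992). The 2 groups overlapped for both genes. Slc16a1, the lactate transporter MCT1, differed by 0.37 ± 0.45 (adjusted p = 0.591), Slc2a2, the beta-cell glucose transporter GLUT2, by -0.17 ± 0.44 (0.811) and Ldhb by -0.07 ± 0.13 (0.737). The glutaminase Gls2 differed by 0.43 ± 0.15 (adjusted p = 0.0848) and the alanine aminotransferase Gpt2 by -0.20 ± 0.17 (0.433), and the growth factor receptors Egfr and Alk by -0.24 ± 0.27 (0.568) and -0.09 ± 0.32 (0.873). The differences of Slc16a1 and Slc2a2 had the widest errors of these genes, and a p above the threshold does not show that their levels were equal. On Slc2a2, Gpt2 and Gls2 the paper compares other groups. It reports GLUT2 higher with the combination than with sunitinib, by immunostaining in normoxic regions, by western blot of tumors and by qRT-PCR. The libraries here came from whole tumors after 4 days of treatment and do not separate normoxic from hypoxic regions. For Gpt2 and Gls2 the paper reports higher levels with sunitinib than in controls, by RNA-seq and RT-qPCR. Here the differences of Slc2a2, Gpt2 and Gls2 were 0.67 (adjusted p = 0.587), 0.48 (0.195) and 0.53 (0.201) with all 12 tumors. Without sunitinib-treated tumor 6 they were 0.27 (0.699), 0.62 (0.0684) and 0.72 (0.0208). Slc38a3, a glutamine transporter of the glutamine list, rose from between 0.114 and 0.346 CPM to between 2.63 and 5.16 CPM (4.26 ± 0.40, adjusted p = 5.97e-04). The acinar genes moved in the same direction, and their part in this rise was not tested.

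Beta-cell identity genes differed little. Of 24 beta-cell genes 3 rose and 1 fell, with a median of 0.05, and none passed with all 12 tumors. Ins2 was at 22021, 34404, 21491 and 18035 CPM in the control tumors and at 26457, 22205, 26809 and 33692 CPM in the R+S-treated tumors (log2 fold change 0.19 ± 0.23, adjusted p = 0.596). Mlxipl, which encodes the glucose sensing factor ChREBP, went from 1637, 1395, 1766 and 1780 CPM to 2192, 2300, 2521 and 2501 CPM (0.53 ± 0.11, adjusted p = 0.0184, and 0.0581 without R+S tumor 7). None of the 9 other islet hormone and lineage genes passed, while 6 of 17 genes kept low in normal beta cells fell and none rose.

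The remaining lists are given by their counts, against 6.69% higher and 9.11% lower over all genes. Of 13 carbonic anhydrase and pH genes 1 rose (Car8, 1.36 ± 0.25, adjusted p = 0.0104, and 0.0929 with all 12 tumors), and of 16 glycogen and gluconeogenesis genes 1 rose and 1 fell. Among 25 heat shock chaperones 4 rose and 1 fell, and among 24 NRF2 antioxidant genes 3 fell. Matrix proteases, inhibitors and lysyl oxidases had 6 lower and 1 higher of 24, claudins and tight junctions 2 and 2 of 19, and cadherins and related genes 3 lower of 16. ER chaperones had 1 higher and 1 lower of 32, lysosome and autophagy genes 2 higher of 37, ribosome biogenesis factors 3 lower of 31, apoptosis regulators 1 higher and 2 lower of 25 and immediate early genes 2 lower of 25. Circadian clock genes had 3 higher and 2 lower of 18, granins and processing enzymes 2 higher and 1 lower of 13, exocytosis and excitability genes 3 higher of 22 and the pentose phosphate pathway 1 lower of 8. A single Schwann cell gene of 6 rose, and no adipocyte, neutrophil or metallothionein gene passed. The lists together held 1304 distinct genes tested and 369 of the 2557 called genes, so 2188 of the calls lay outside them.

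The sunitinib-treated tumors give the same measures without rapamycin. Both treatments were set against the same 4 control tumors, and their values are therefore given side by side only. In the fit of all 12 tumors the endothelial list had a median log2 fold change of -2.87 in sunitinib-treated tumors and -1.92 in R+S-treated tumors, the erythroid list -6.11 and -4.30, and the acinar list 9.86 and 8.35. Ccnd1 differed from control by -2.88 with sunitinib and by -3.01 with the combination. The mitosis list was at -0.21 and -0.86, the ATF4 list at 0.19 and -0.60, and the glycolytic enzymes at 0.99 and 0.16. Ldha differed from control by 2.93 with sunitinib, and Ak4 by 4.89. Sunitinib-treated tumor 6 was the highest for both, with Ldha at 340 CPM against 25.5 to 66.9 CPM in the other 3 and Ak4 at 47.9 CPM against 4.56 to 19.4 CPM. Without it, in a fit added after the data were seen, the differences were 1.60 for Ldha and 4.15 for Ak4, and the medians with sunitinib were -2.84 for the endothelial list, -0.17 for mitosis, 0.27 for ATF4 targets and 0.82 for glycolytic enzymes.

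R+S-treated and sunitinib-treated tumors were also compared directly, as a difference between those 2 groups. In the fit of all 12 tumors the control tumors still entered the filter, the normalization and the estimate of spread. In the fit of all 12 tumors 1200 genes (7.21%) passed, but with only the 8 tumors of that comparison 3 did by edgeR's quasi-likelihood test (3971 had an unadjusted p under 0.05). These were Psat1, Eif4ebp1 and Phgdh, named because they were the 3, and all were lower with the combination. Psat1 was at 156, 167, 148 and 138 CPM in sunitinib-treated tumors 5, 6, 8 and 12, against 53.2 to 66.2 CPM in the R+S-treated tumors on the scale of that fit (log2 fold change -1.39 in the 12-tumor fit, adjusted p = 0.0143, and 0.0119 with 8 tumors). Eif4ebp1 was at 30.4, 22.0, 28.4 and 26.4 CPM against 5.94 to 7.52 CPM (-1.99, adjusted p = 0.0221 and 0.0119). Phgdh, the first enzyme of serine synthesis, was at 23.6, 20.9, 31.2 and 35.5 CPM against 5.59 to 6.91 CPM (-2.10, adjusted p = 0.0252 and 0.0254). Against the control tumors Phgdh did not pass (-1.23 ± 0.40, adjusted p = 0.0699).

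All other calls of the direct comparison rest on the larger fit, and they depended on single R+S tumors. Without R+S tumor 4, 5 or 7 that fit called 1, 0 and 1 genes, and without R+S tumor 10 it called 314. There 14 of 24 endothelial genes were higher with the combination than with sunitinib alone, Kdr by 1.18 (adjusted p = 0.0358, and 0.126 with 8 tumors) and Flt1 by 1.68 (0.0241 and 0.0994). The combination was lower for 15 of 35 mitosis genes, 12 of 30 ATF4 targets and 6 of 22 glycolytic enzymes, among them Ldha (-2.92, adjusted p = 0.0306 and 0.104) and Ube2c (-1.22, 0.0311 and 0.102). Without sunitinib-treated tumor 6 the difference of Ldha was -1.59 and that of Ube2c -1.38, and 11 endothelial genes were higher and 15 mitosis genes, 17 ATF4 targets and 6 glycolytic enzymes lower. Over all 16822 genes of that fit 701 were higher and 991 lower. Slc16a3 was lower by 2.11 (adjusted p = 0.0277 and 0.103), but the groups overlapped, sunitinib-treated tumor 8 being at 12.9 CPM and R+S-treated tumor 7 at 15.1 CPM. Six4 and Fmnl2 were higher with the combination by 1.58 and 1.39 (adjusted p = 0.0241 and 0.0258, and 0.0994 for both with 8 tumors).

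**Figure D5:**
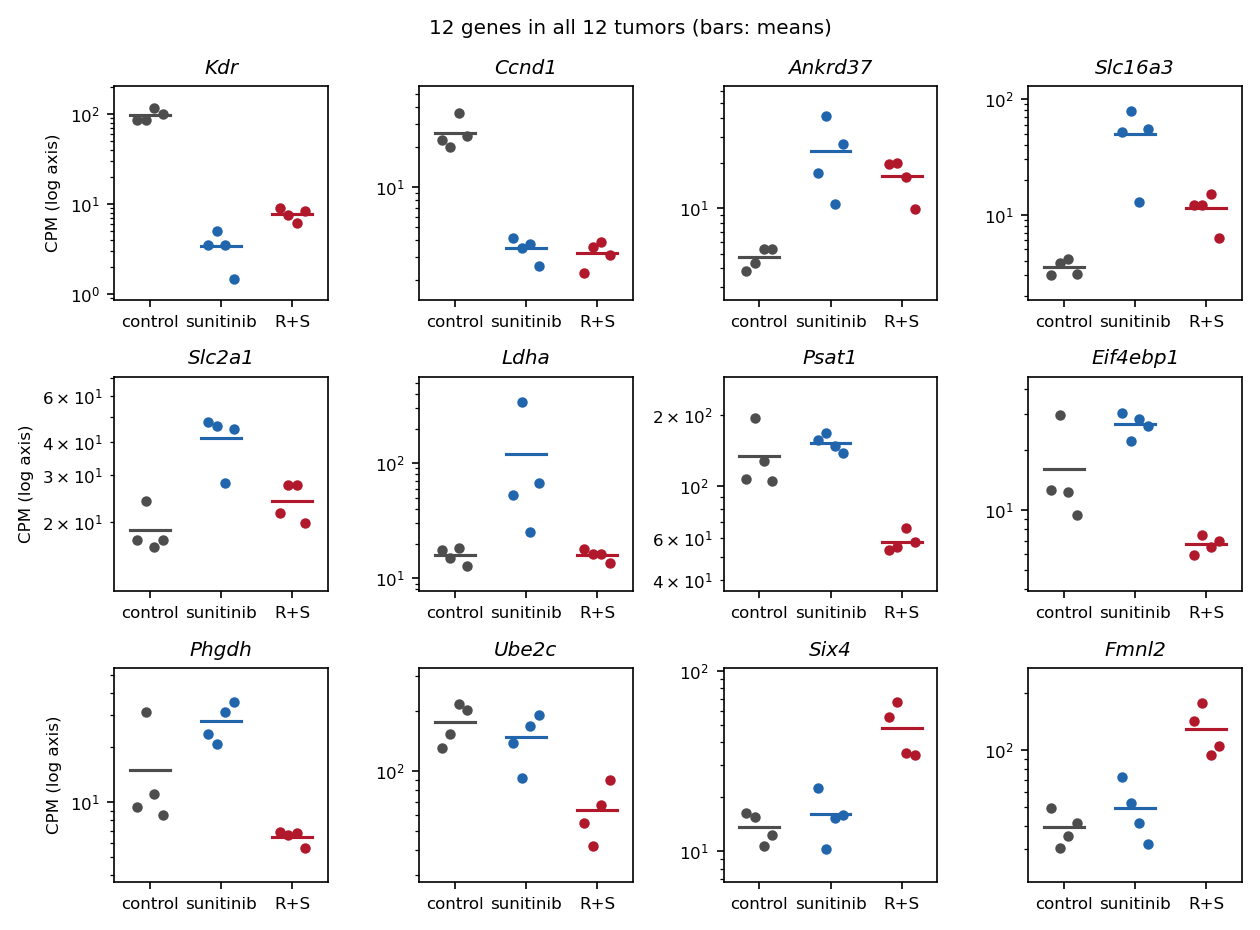
CPM on a log axis of 12 genes in the control, sunitinib-treated and R+S-treated tumors, 1 point per tumor. Psat1, Eif4ebp1 and Phgdh are lowest in the R+S-treated tumors, Kdr and Ccnd1 are low in both treated groups, and Ldha overlaps between control and R+S-treated tumors.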

How the data were processed

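RNA of 12 whole tumors was made into stranded poly(A) libraries. Per the labels' processing notes the authors used cutadapt 1.2.1, TopHat2 2.0.9, HTSeq 0.5.4p3 and GRCm38. The annotation release and the strand setting of the counting are not given in the sources used here. The authors deposited, for each tumor, unnormalized counts of reads for 38924 gene identifiers, followed by 5 summary lines that were left out. Reads on no gene amounted to between 13.63% and 18.76% of counted, ambiguous and unassigned reads together in the 8 tumors. Symbols came from GENCODE M21 for 37607 identifiers. Some genes that the rules name are not reported here. No value of another sample was present (0 columns).

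The 4 R+S-treated and 4 control tumors were fitted with edgeR 4.0.16 (R 4.3.3): filterByExpr (at least 10 reads by its rule, 15 in total), TMM normalization and the robust quasi-likelihood F-test, with Benjamini-Hochberg adjustment over all genes tested and a threshold of 0.05. CPM are divided by TMM-scaled library sizes. The error beside a log2 fold change is its standard error, the absolute value over the square root of F. R+S and sunitinib were compared in a fit of all 12 tumors. Counts at this depth leave genes with few reads imprecise, and PCR copies were not marked, so counting error is a lower bound.

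Named were the 12 highest and 12 lowest genes of the rule given with them, excluding predicted genes and pseudogenes, up to 4 called members and the most abundant member of each of 61 gene lists, and 13 genes named in the study's text. Vwf and Phgdh were named after their values were seen where the rule did not take them. The members, lists and motifs were chosen with earlier results of these data known, and lists were described by counts and medians with no set test. The labels name separate samples and give them prefixes, which R+S tumors 5 and 7 and all control tumors share, but do not say what a prefix marks or whether tumors came from separate mice, so the p-values measure the spread between these samples. No 2 libraries of a group agreed within sampling noise (chi-square per gene 22.8 to 606).

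On simulated counts for the 8-tumor comparison (16024 genes), 158 of 200 changed genes were recovered, 95 of 100 at a log2 change of 2 and 63 of 100 at 1, with 10 unchanged genes called. Alternatives were DESeq2 1.42.0, other normalizations, filters and fits, a minimum fold change, summing of 2 tumors with 1 label prefix, the acinar covariate, each tumor left out, and, added after the data were seen, an offset for GC content and length and fits of all tumors but sunitinib-treated tumor 6.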

Additional observations from a re-analysis of the deposited data

Results flagged for a closer look

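Single tumors stood apart from the other 3 of their group, by Dixon's ratio of the gap to the range, in 18 of the 308 groups of 4 tumors examined (5.84%), while chance alone gives about 1 in 20. No cause was tested.

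R+S-treated tumor 4 was the highest of its group for 4 vessel genes: Tie1, at 8.82 CPM against 5.63 to 5.83 CPM (ratio 0.923), Lama4, at 10.3 against 7.98 to 8.18 CPM (0.905), Emcn, at 7.46 against 4.47 to 4.80 CPM (0.859), and Nid2, at 3.91 against 1.91 to 2.16 CPM (0.833). It was also highest for the mitochondrial genes Mrps18c, at 18.8 against 15.9 to 16.2 CPM (0.892), and Uqcrb, at 45.9 against 38.6 to 39.5 CPM (0.871), and lowest for Alk, at 13.4 against 31.2 to 36.4 CPM (0.847). R+S-treated tumor 5 was lowest for Aplnr, at 2.32 against 3.22 to 3.25 CPM (0.975), and for Cox5a, at 26.7 against 36.4 to 38.5 CPM (0.848), and highest for Thy1, at 3.63 against 3.47 to 3.49 CPM (0.855), a gap that is small in itself.

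Among the control tumors, tumor 1 was highest for Reg3g, at 0.0216 CPM with the others at 0 (1.000), and for Muc1, at 3.13 against 1.49 to 1.56 CPM (0.937), and lowest for Ccne1, at 26.2 against 39.1 to 40.7 CPM (0.910). Control tumor 2 was highest for Slc2a1, at 24.1 against 16.3 to 17.2 CPM (0.861), and lowest for Fabp5, at 19 against 25.8 to 26.5 CPM (0.918), and for Hspa1b, at 2.85 against 4.15 to 4.37 CPM (0.876). Control tumor 3 was highest for Plvap, at 163 against 140 to 144 CPM (0.830), and control tumor 4 lowest for Fdps, at 42.4 against 48.9 to 50 CPM (0.873).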

How the results depend on the processing

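The number of genes called between R+S-treated and control tumors, 2557, was 693 with all 12 tumors in 1 fit, 1627 in that fit without sunitinib-treated tumor 6 (added after the data were seen), 4118 with DESeq2, 1609 with R+S tumors 5 and 7 summed, 207 when tested against a log2 fold change of at least 1, and 0 with the acinar covariate. Without 1 tumor it ranged from 1014 (without control tumor 3) to 2701 (without R+S tumor 10), with 1466, 1323 and 1351 without R+S tumors 4, 5 and 7. Other settings stayed within 1.5 times. By library size alone 33.5% of the calls were higher, against 42.4%. The 1200 genes between R+S-treated and sunitinib-treated tumors became 3 with 8 tumors, 3045 with DESeq2, 501 with no filter, and 0 to 2861 without 1 tumor (0 without R+S tumor 5, 2861 without sunitinib tumor 5). No paired analysis was possible because the 2 main groups share fewer than 2 replicate numbers.

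Of 154 named genes 137 were called, of which 85 kept the call in all 8 fits without 1 tumor and 52 lost it in at least 1, with 0 changes of sign. All 12 tumors weakened 72 of them, and the length and GC offset 9. The acinar covariate reversed 22: Tff2 (-1.28), Filip1 (-0.09), Rgs5 (0.61), Col4a1 (0.43), Apln (1.99), Efnb2 (0.33), Ctrb1 (-1.65), Sox9 (-0.57), Muc1 (-1.05), Sdhb (0.22), Idh3a (0.54), Cox5a (0.27), Eif3i (0.37), Nupr1 (-0.17), Pycr1 (0.97), Ddit4 (0.13), Scd2 (0.16), Kif2c (0.53), Cdc20 (0.37), Ccne1 (0.32), Nkx2-2 (-0.35) and Txn1 (0.20). It also reversed the medians of the acinar (-0.47), duct (-1.16), ATF4 (0.06), matrix protease (0.05) and circadian clock (0.06) lists. None of these values passed a test, and the score separates the groups almost completely.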
